A study of Mus musculus with 5 samples.

Results

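Both arms of miR-155, miR-146a, miR-146b and miR-147 were examined in bone marrow-derived dendritic cells (BMDCs) exposed to flagellin. These 8 mature miRNAs were chosen by name from the 1122 mouse miRNAs on a 1-colour Agilent array. No measured value entered the rule, but earlier results of these data were known when the arms were chosen. They are known from other systems as miRNAs that NF-κB induces downstream of Toll-like receptors (TLRs). Only 4 of the 8 arms were detected in these BMDCs, and none of them passed the test for a change with flagellin after adjustment, so they are called here by their names and not as induced miRNAs.

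BMDCs were grown from the marrow of C3H/HeJ mice with rmGM-CSF and rmIL-4, and CD11c+ cells were taken with magnetic beads. Cells of this strain carry a natural Tlr4 mutation and respond poorly to lipopolysaccharide, and both groups share it. The flagellin group (FliC, 100 ng/ml, 24 h) has 3 arrays and the mock group, kept in medium alone for the same time, has 2. Flagellin is the protein of the bacterial flagellum and the ligand of TLR5. The labels do not say whether replicates were separate cultures or mice, so the p-values measure only the spread between these arrays, which may be technical.

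TLR ligands activate NF-κB through the adaptor MyD88 and the signalling proteins IRAK1 and TRAF6. miR-155, made from the transcript of Mir155hg, is known to promote inflammatory responses, in part by repressing the inhibitors SHIP1 and SOCS1. miR-146a and miR-146b are known as feedback inhibitors that repress IRAK1 and TRAF6, and miR-147 has been described in macrophages as a miRNA that restrains cytokine production.

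The mature sequences show which arms can act on the same targets and which probes could confuse them. RefSeq (GRCm38.p6) held the sequence of 7 of the 8 arms, and miR-147-3p is named only. Each is printed 5′ to 3′ with the seed, bases 2 to 8, in capitals.
miR-155-5p: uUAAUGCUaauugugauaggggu
miR-155-3p: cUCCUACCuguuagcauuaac
miR-146a-5p: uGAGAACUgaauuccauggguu
miR-146a-3p: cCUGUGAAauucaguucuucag
miR-146b-5p: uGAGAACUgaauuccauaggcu
miR-146b-3p: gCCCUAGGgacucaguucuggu
miR-147-5p: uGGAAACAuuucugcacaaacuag

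Among the 1679 mature mouse miRNA names of that table, the seed of miR-146a-5p was found in 2, miR-146a-5p and miR-146b-5p. Each of the other 5 seeds printed above occurred in its own arm only. The 5p arms of miR-146a and miR-146b share 20 of 22 bases and differ by G18A and U21C, counted from the 5′ end with the miR-146a-5p base first. The bases that differ are in capitals here, and both lie outside the seed.
miR-146a-5p: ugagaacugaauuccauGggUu
miR-146b-5p: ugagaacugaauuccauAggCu

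The arms lie on 4 chromosomes of GRCm38.p6. miR-155-5p is at chr16:84714143-84714165 and miR-155-3p at chr16:84714182-84714202, both on the plus strand within Mir155hg, the non-coding host gene of miR-155. miR-146a-5p is at chr11:43374435-43374456 on the minus strand, in Mir146. miR-146b-5p is at chr19:46342790-46342811 on the plus strand, within the annotated gene Gm36493, and miR-147-5p is at chr2:122640814-122640837 on the plus strand, within AA467197.

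The array reads each arm with 2 or 4 DNA probes of different length, 20 probes for the 8 arms, each printed in 10 or 20 spots. The probes of the 3 brightest arms are shown because the results rest on them. Each of these probes is complementary to its miRNA from the 3′ end into the seed. The base in capitals is the one by which the longer probe reaches further into the seed.
miR-155-5p 17-nt probe: acccctatcacaattag
miR-155-5p 18-nt probe: acccctatcacaattagC
miR-146a-5p 18-nt probe: aacccatggaattcagtt
miR-146a-5p 19-nt probe: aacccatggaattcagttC
miR-146b-5p 18-nt probe: agcctatggaattcagtt
miR-146b-5p 19-nt probe: agcctatggaattcagttC

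The longer miR-155-5p probe pairs with bases 6 to 23 of its miRNA. The longer miR-146a-5p and miR-146b-5p probes pair with bases 4 to 22, and the positions that tell these 2 miRNAs apart are therefore both covered. Still, a miR-146a-5p probe shares an unbroken stretch of 13 or 14 bases with the matching miR-146b-5p probe, whereas the miR-155-5p probes share at most 8 with a probe of any other mouse miRNA. How much of one miR-146 arm the probes of the other read was not tested.

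For each miRNA the scanner software gives a total gene signal, the sum over the probes whose signal is above 3 times its error. A miRNA without such a probe counts as not detected and receives the value 0.1. For scaling, 277 mouse miRNAs found on every array were used. Their 75th percentile, by which all signals of an array were divided, was 281, 293 and 211 with flagellin and 282 and 246 with mock. Signals of different miRNAs come from different probes and are not compared with each other. All arrays were on 1 slide, both mock arrays in array column 4 and the flagellin arrays in columns 2 and 3, and an effect of column cannot be told apart from one of flagellin. The number of arrays limits the precision.

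As a check of the cell label, the myeloid miRNA miR-223-3p had total gene signals of 3464, 3393 and 2499 with flagellin and 3118 and 2770 with mock. Of the myeloid and haematopoietic list, 3 of 4 miRNAs were detected, and miR-223-5p was not. The other 2, miR-142-3p and miR-142-5p, had log2 differences of −0.25 and 0.029, and their groups overlapped. This list does not tell dendritic cells from other myeloid cells. The lymphoid miR-150 arms were not detected on any array. The sums of scaled signals of the other marker lists were 0 to 0.0579 with flagellin and 0 with mock for the erythroid list, 0.0266 to 0.0993 and 0.0205 to 0.0444 for the endothelial list, and 0 to 0.181 and 0 to 0.0198 for the stromal list. Flagellin replicate 2 was the highest array for all 3 of these lists. The log2 differences of the detected arms, and the comparison of miR-155-5p with miR-146a-5p, are therefore also given without it.

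miR-155-5p (mmu-miR-155-5p on the array) had the largest log2 difference of the detected arms, though an order against miR-146a-5p was not detectable. Its total gene signal was 835, 788 and 621 on flagellin replicates 1 to 3 and 597 and 584 on mock replicates 1 and 2. Every flagellin array lay above both mock arrays, already before scaling. After scaling the values were 2.97, 2.69 and 2.95 times the array's 75th percentile with flagellin and 2.12 and 2.37 times with mock. On the log2 scale the flagellin mean was 1.52 ± 0.080 (SD, n = 3) and the mock mean 1.16 ± 0.12 (SD, n = 2), with a gap of 0.18 between the lowest flagellin and the highest mock array.

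miR-155-5p was 1.28-fold higher with flagellin (95% interval 1.07 to 1.52), a log2 difference of 0.35 with a standard error of 0.095. It was tested with limma among 307 miRNAs, those detected on at least 2 arrays, and had an adjusted p = 0.65 (Benjamini-Hochberg). The difference did not pass the threshold, and its interval leaves out a 2-fold change, the size that the study's methods required. In RNA from a whole culture, more cells with a miRNA and more of it per cell cannot be told apart. Without flagellin replicate 2 the log2 difference was 0.40.

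miR-146a-5p (mmu-miR-146a-5p), a feedback inhibitor of TLR signalling, showed a difference of similar size. Its total gene signal was 131, 121 and 89.99 with flagellin and 99.6 and 88.6 with mock, and here the lowest flagellin array overlapped the mock arrays before scaling. The scaled values were 0.466, 0.412 and 0.427 with flagellin and 0.353 and 0.360 with mock, which do not overlap. The log2 means were −1.20 ± 0.092 (SD, n = 3) and −1.49 ± 0.019 (SD, n = 2). The gap between the lowest flagellin and the highest mock array was 0.19, slightly wider than that of miR-155-5p.

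The fold for miR-146a-5p was 1.22 (95% interval 1.04 to 1.43), a log2 difference of 0.28 with a standard error of 0.086 (limma's test, adjusted p = 0.65). It did not pass the threshold either, and 2-fold again lay outside the interval. Whether the flagellin and mock arrays of miR-146a-5p overlap depended on the scaling, since flagellin replicate 3 had the lowest 75th percentile of the 5 arrays. Without flagellin replicate 2 the log2 difference was 0.32.

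miR-146b-5p (mmu-miR-146b-5p), which carries the same seed, did not part the groups. Its total gene signal was 1387, 1338 and 929 with flagellin and 1306 and 1059 with mock, or 4.93, 4.57 and 4.41 against 4.63 and 4.30 after scaling. Mock replicate 1 lay above 2 of the 3 flagellin arrays. The fold was 1.04 (95% interval 0.883 to 1.22), with a log2 difference of 0.054 and a standard error of 0.088 (limma's test, adjusted p = 0.891). A rise of 1.22-fold or a fall to 0.883-fold is within this interval. Single arrays moved this small log2 difference, to 0.0080 without flagellin replicate 1, 0.089 without flagellin replicate 3, 0.11 without mock replicate 1 and 0.0013 without mock replicate 2. Without flagellin replicate 2 it was 0.064.

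**Figure D1:**
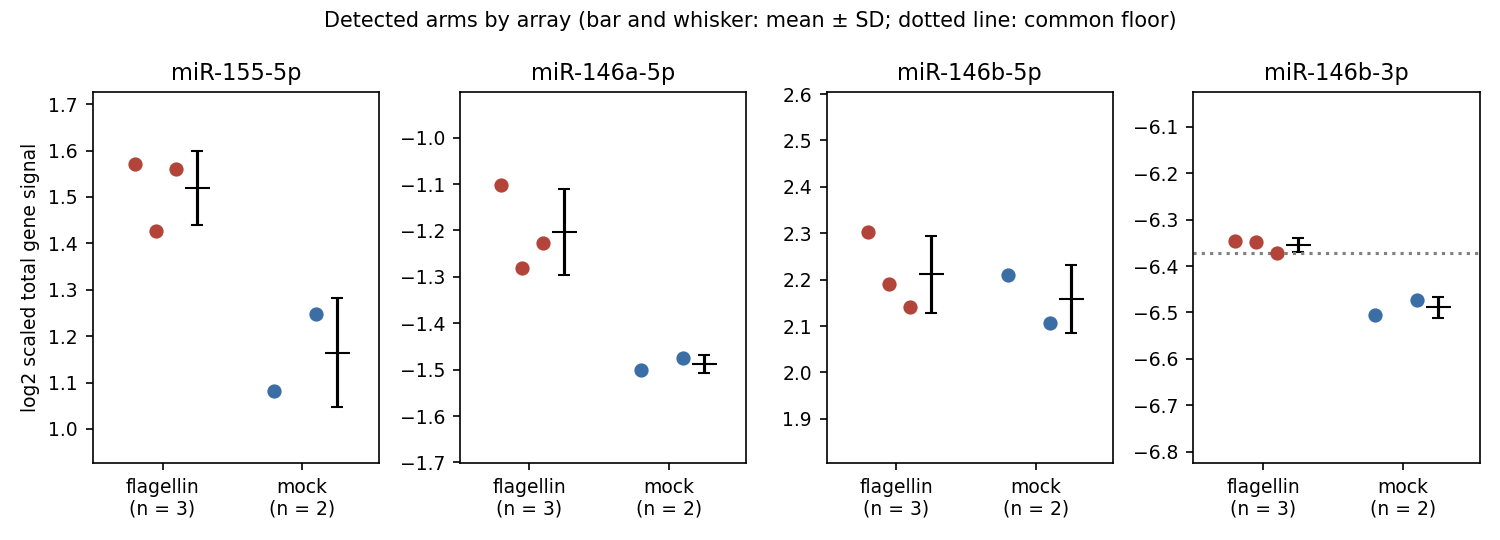
log2 scaled total gene signal (y axis) of the 4 detected arms on each array, with flagellin in red and mock in blue; points are arrays, and the bar with whiskers is the mean ± SD. Each panel spans the same range of the log2 scale around its own level, and values are drawn before the floor, which the dotted line marks in the miR-146b-3p panel. The flagellin points of miR-155-5p and miR-146a-5p lie above both mock points, and those of miR-146b-5p do not.

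miR-146b-3p (mmu-miR-146b-3p), the passenger arm of miR-146b, was at the limit of detection. Its total gene signal was 3.46, 3.597 and 2.54 with flagellin and 3.11 and 2.77 with mock, and the value on flagellin replicate 3 was the lowest signal of any detected mouse miRNA on that array. It also set the common floor of 0.0121 (−6.37 on the log2 scale), to which both mock values were raised before the test. The tested log2 difference of 0.017 (standard error 0.066, limma's test, adjusted p = 0.966) is therefore held near 0 by the floor, and it was 0.013 without flagellin replicate 2 and 0.025 without flagellin replicate 3. Before the floor the scaled values were 0.0123, 0.0123 and 0.0121 with flagellin and 0.0110 and 0.0113 with mock.

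The signal of miR-146b-3p came from 1 of its 4 probes, the 17-nt probe.
miR-146b-3p 17-nt probe: accagaactgagtccct
This probe stood at 3.15 to 3.91 errors, and the 16-nt probe, shorter by the last base, stood at 1.70 to 2.07 errors on the 5 arrays. The 14-nt and 15-nt probes were below 0 on every array. On a single array between 0% and 30% of the spots of the 17-nt probe were well above background.

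The other 4 arms, miR-155-3p (mmu-miR-155-3p), miR-146a-3p (mmu-miR-146a-3p) and both arms of miR-147, were not detected on any array. Their 10 probes gave 50 readings over the 5 arrays, of which 0 were above 3 errors, 0 were above 1 error and 37 were below 0. The arms of miR-147 are therefore without a measured level in either group, and no fold is given for these 4 arms.

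The probe signals of miR-155-3p lay between −0.795 and 0.548, with 7 of 10 readings below 0. Those of miR-146a-3p were below 0 in 10 of 10 readings, from −0.941 to −0.0611. For miR-147-5p, readings ran from −1.40 to 0.287, with 6 of 10 below 0. miR-155 and miR-146a were thus read by their 5p arms, while their 3p arms stayed within 1 error of 0. miR-147-3p gave 14 of 20 readings below 0, and only its 18-nt probe was above 0 on all 5 arrays, at 0.323 to 0.532 or 0.407 to 0.652 errors.

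**Figure D2:**
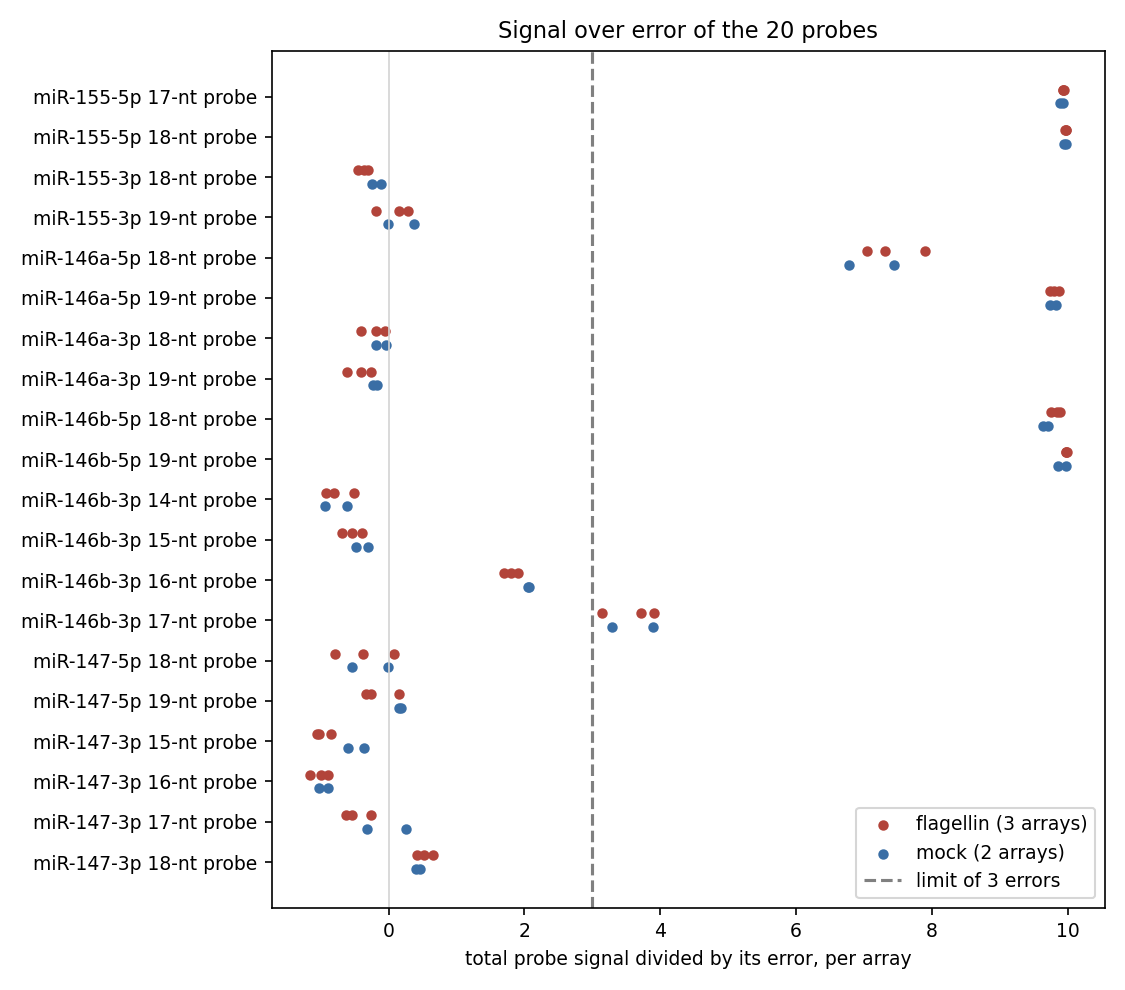
Total probe signal divided by its error (x axis, no unit) for the 20 probes (y axis), 1 point per array, flagellin in red and mock in blue, with the detection limit of 3 errors as a dashed line. The probes of miR-155-5p, miR-146a-5p and miR-146b-5p lie between 6.78 and 9.99 errors, the 17-nt probe of miR-146b-3p just past the limit, and the 10 probes of the 4 undetected arms between −1.17 and 0.652 errors.

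The probes of the brighter arms were read separately to see whether they moved together. The 18-nt probe of miR-155-5p had signals of 611, 577 and 451 with flagellin and 428 and 415 with mock. Its 17-nt probe had signals of 224, 211 and 171 with flagellin and 169 and 169 with mock. For both, all flagellin arrays were above both mock arrays, before and after scaling. The log2 differences of the scaled signals were 0.39 for the 18-nt and 0.27 for the 17-nt probe, each with p = 0.1 in a two-sided exact permutation test.

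With 3 arrays against 2 there are 10 splits, so 0.1 is the smallest p these exact tests can give and none could pass 0.05. The test was run on 7 probes, those above 3 errors, and the exact permutation p adjusted over them (Benjamini-Hochberg) was 0.175 to 0.6. Of the 7 probes, 5 had all flagellin values above both mock values after scaling and 2 without scaling, the 2 of miR-155-5p. The share over all probes of the array is not given here, so this count has no background to be read against.

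The 19-nt probe of miR-146a-5p had signals of 110, 101 and 74.7 with flagellin and 83.2 and 73.8 with mock, with a log2 difference of 0.29 after scaling (exact permutation p = 0.1). The 18-nt probe read 21.0, 19.3 and 15.3 against 16.4 and 14.7, with a log2 difference of 0.27 (exact permutation p = 0.2). In both probes the scaled flagellin values were above both mock values. The 2 probes of miR-146b-5p had log2 differences of 0.039 and 0.055 (exact permutation p = 0.6 for each) and overlapped. Both probes of each bright arm thus had differences of the same sign.

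The 17-nt probe of miR-146b-3p, read without the floor, had a log2 difference of 0.13 (exact permutation p = 0.1) and no overlap between the groups. This reading rests on signals of 2.54 to 3.597 with errors of 0.798 to 0.967, so the error of each single reading is larger than the difference.

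**Figure D3:**
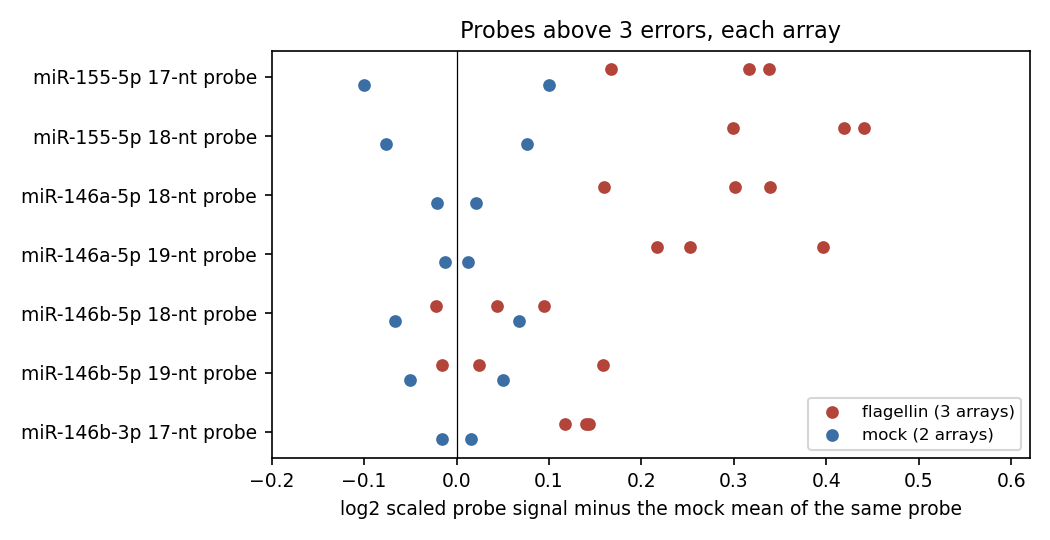
log2 scaled signal of each of the 7 probes above 3 errors (y axis) minus the mean of the mock arrays for the same probe (x axis, log2 units), 1 point per array, flagellin in red and mock in blue. The flagellin points of both miR-155-5p and both miR-146a-5p probes are to the right of the mock points, and those of the miR-146b-5p probes are mixed with them.

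The longer probe held most of the signal of its arm. Its share was 71.1% to 73.2% for miR-155-5p, 83.0% to 84.0% for miR-146a-5p and 87.5% to 88.9% for miR-146b-5p over the 5 arrays. Within an array the ratio of 2 probes of the same arm does not depend on scaling. For miR-155-5p the 18-nt probe was 2.72, 2.73 and 2.64 times the 17-nt probe with flagellin and 2.54 and 2.45 times with mock, so the groups did not overlap in this ratio. For miR-146a-5p the ratio was 5.25, 5.25 and 4.88 against 5.07 and 5.01, with overlap. For miR-146b-5p it was 7.98, 7.03 and 7.41 against 7.29 and 7.46, also with overlap. No test was run on these ratios. The share of other probe pairs without overlap is not given, so the parting for miR-155-5p has no background to be read against.

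The spread between the spots of a probe on 1 array, as a coefficient of variation, was 6.92% to 12.9% for the miR-155-5p probes and 6.32% to 14.1% for the miR-146a-5p probes. It was 4.79% to 25.1% for the miR-146b-5p probes and 18.8% to 27.0% for the 17-nt probe of miR-146b-3p. Spots on an array share 1 RNA sample and are not replicates of the treatment.

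Because any scaling factor cancels between 2 miRNAs of the same array, the arms were also compared within arrays. The log2 value of miR-155-5p minus that of miR-146a-5p was 2.67, 2.71 and 2.79 with flagellin and 2.58 and 2.72 with mock. The changes of the 2 arms differed by 0.070 (two-sided exact permutation p = 0.5), with overlap between the groups, and an order of the 2 changes was not detectable with these arrays. This difference was 0.077 without flagellin replicate 2, and it depended on single arrays, at 0.037 without flagellin replicate 3, 0.00051 without mock replicate 1 and 0.14 without mock replicate 2.

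The other 5 pairs were compared after their values had been seen. miR-146a-5p minus miR-146b-5p, the pair with a common seed, was −3.40, −3.47 and −3.37 with flagellin and −3.71 and −3.58 with mock. The difference of 0.23 (exact permutation p = 0.1) came with no overlap between the groups. miR-155-5p minus miR-146b-5p was −0.73, −0.76 and −0.58 with flagellin and −1.13 and −0.86 with mock, a difference of 0.30 (exact permutation p = 0.1), again without overlap. Relative to miR-146b-5p, miR-155-5p and miR-146a-5p were both higher on every flagellin array than on either mock array. The exact permutation p of 0.1 is the smallest that these arrays allow. Adjusted over the 6 pairs (Benjamini-Hochberg) it was 0.30 for both. These pairs are formed from the same values as the single arms and add no separate support. The pairs with miR-146b-3p differed by 0.22 for miR-155-5p (exact permutation p = 0.2), 0.15 for miR-146a-5p (p = 0.2) and −0.080 for miR-146b-5p (p = 0.4).

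Among all 307 miRNAs tested, limma's test called 0.651% at an adjusted p under 0.05, which is 2 miRNAs, both lower with flagellin. Of the 8 arms 4 were tested and 0 were called. At an unadjusted p under 0.05, 1.63% of all miRNAs were higher with flagellin, 5 miRNAs, and 4.23% were lower. Both miR-155-5p and miR-146a-5p were among the 5, and 0 arms were among the lower ones. The share with all flagellin values above both mock values was 11.4% of all miRNAs, or 35, and it held for the same 2 arms. The share with all flagellin values below both mock values was 8.79%, and it held for 0 arms. No miRNA, with or without the arms described here, was both over 2-fold higher and at an unadjusted p under 0.05.

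Over the 307 miRNAs the median log2 difference was 0.0095, with the 5th percentile at −0.67 and the 95th at 0.21. The 4 tested arms had a median of 0.17, and only miR-155-5p and miR-146a-5p lay above that 95th percentile. By size of the difference on the higher side miR-155-5p ranked 6 and miR-146a-5p ranked 10 of all tested, and by p in either direction they ranked 7 and 10.

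**Figure D4:**
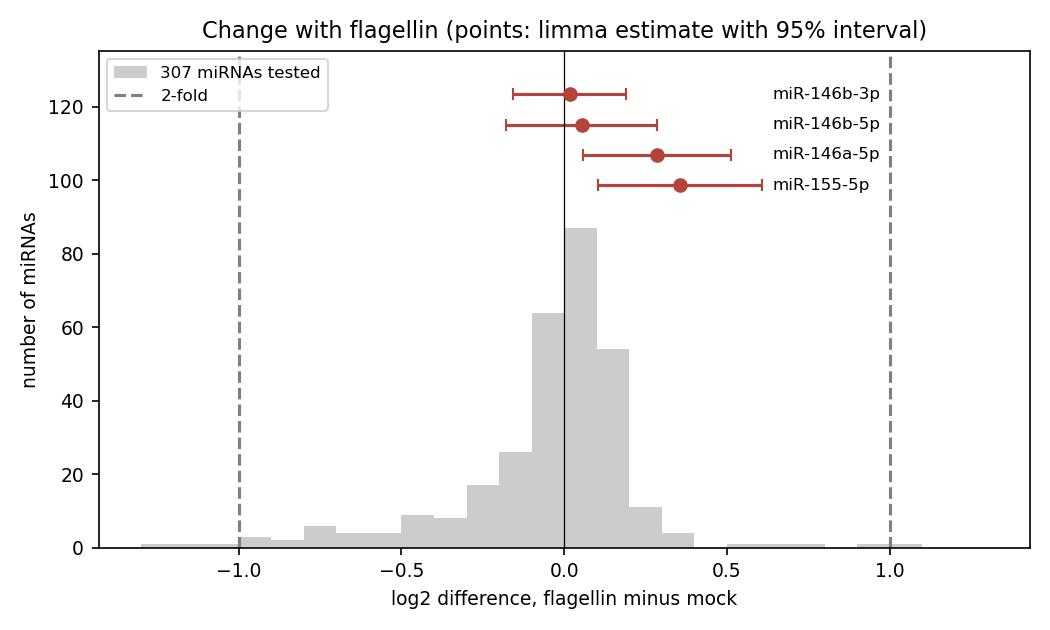
Histogram of the log2 difference, flagellin minus mock (x axis, log2 units), of the 307 miRNAs tested (y axis, number of miRNAs), with the limma estimates of the 4 detected arms and their 95% intervals as red points with bars, drawn at arbitrary heights. The intervals of miR-155-5p and miR-146a-5p lie above 0 and below the dashed 2-fold line, and the intervals of both miR-146b arms span 0.

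Since array row on the slide could differ from array to array, the differences were also taken within rows. In row 1, with 2 flagellin arrays and 1 mock array, the log2 difference was 0.32 for miR-155-5p, 0.31 for miR-146a-5p and 0.12 for miR-146b-5p. In row 2, with 1 array of each group, it was 0.35, 0.22 and −0.020. miR-155-5p and miR-146a-5p were higher with flagellin in both rows, and miR-146b-5p changed sign between them. With so few arrays per row no test was run within them.

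Other miRNAs that are known to respond to TLR ligands were looked at as a list of 11, chosen by name. Of these, miR-9-5p and miR-187-3p were not detected on any array and 9 were tested, of which 0 passed an adjusted p under 0.05. At an unadjusted p under 0.05, 1 was higher, miR-132-3p, and 0 were lower. The median log2 difference of the 9 was 0.023, with 5 differences above 0 and 4 below.

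miR-132-3p, a miRNA known to be induced through CREB in stimulated myeloid cells, had total gene signals of 41.1, 38.4 and 28.0 with flagellin and 31.5 and 25.3 with mock. Its flagellin replicate 3 overlapped mock before scaling and not after it, as with miR-146a-5p. The log2 difference was 0.35 with a standard error of 0.091 (limma's test, adjusted p = 0.65). miR-212-3p, which is made from the same primary transcript, had a log2 difference of 0.023 with a standard error of 0.25, and its arrays overlapped.

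miR-125b-5p at 0.18 and miR-223-3p at 0.096 also had all flagellin values above both mock values after scaling, without reaching an unadjusted p under 0.05. miR-21-5p, a miRNA of the resolution phase of inflammation, had a log2 difference of 0.057. The members of the miR-99b, let-7e and miR-125a cluster had −0.0015, −0.012 and −0.018, and let-7i-5p, which is known to repress TLR4, had −0.0064. In all of these last 5 the groups overlapped.

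The miRNAs whose pattern over the 5 arrays was most like that of the 2 arms were taken from 273 others detected on all arrays, by the root mean square difference of log2 values centred on each miRNA's own mean. For miR-155-5p these were miR-582-3p at 0.0622, miR-674-3p at 0.0889 and miR-24-3p at 0.0921, and miR-146a-5p stood at 0.0670. For miR-146a-5p they were miR-582-3p at 0.0315, miR-132-3p at 0.0566 and miR-326-3p at 0.0571. At the same 0.0670, miR-146a-5p had rank 2 for miR-155-5p, whereas miR-155-5p had only rank 8 for miR-146a-5p. The log2 differences were 0.26 for miR-582-3p, 0.18 for miR-674-3p, 0.17 for miR-24-3p and 0.26 for miR-326-3p. All share the 5 arrays and their scaling, so the likeness is a description of these arrays.

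**Figure D5:**
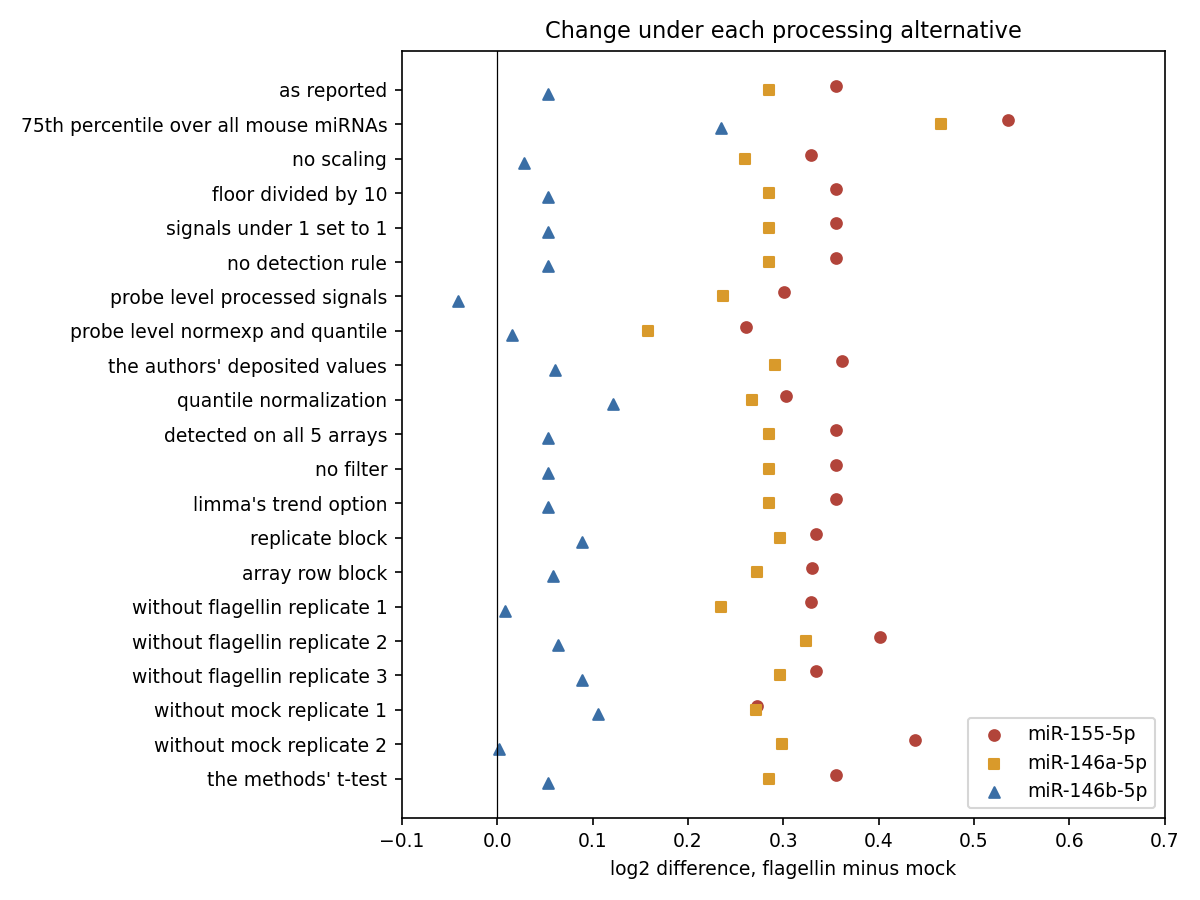
log2 difference, flagellin minus mock (x axis, log2 units), of miR-155-5p (red circles), miR-146a-5p (yellow squares) and miR-146b-5p (blue triangles) as reported and under each of 20 processing alternatives (y axis). miR-155-5p lies between 0.26 and 0.54 and miR-146a-5p between 0.16 and 0.47 over the alternatives, while miR-146b-5p is below 0 in 1 of them.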

How the data were processed

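The authors labelled total RNA with Cy3, hybridized it to Agilent mouse miRNA arrays (Release 18.0) and extracted signals with Feature Extraction 10.7.3.1. The deposited intensity files hold spot, probe and gene signals, on a linear scale and with probe coordinates in mm9 per the file headers. The authors' deposited table of log2 values is, on each array, the log2 of the total gene signal lowered by 1 constant, and served as an alternative.

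Total gene signals were scaled to the 75th percentile of the 277 mouse miRNAs found on every array. Values under 0.0121 were set to it before taking log2, since below it not every array can register a signal. Control spots and viral miRNAs did not enter. limma 3.58.1 under R 4.3.3 compared 3 flagellin with 2 mock arrays over 307 miRNAs, with no covariates and Benjamini-Hochberg adjustment. The fit was tested on simulated data with changes larger than those of the arms here. That test does not show whether changes of the size seen here could be called. The methods' t-test was an alternative. The exact permutation p is the share of the 10 splits of the arrays whose absolute mean difference is at least the observed one. This definition replaced, after a first run, one that doubles the one-sided p and cannot go below 0.2. Python 3.11.15, pandas 2.3.3 and numpy 2.4.6 were used for the other steps and matplotlib 3.10.9 for plots.

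The arms, the other lists and the tests were chosen with earlier results of these data known. The miRNAs named are the 8 arms, those of the lists and, for miR-155-5p and miR-146a-5p, the 3 with the most similar pattern. Of the erythroid list, miR-486-5p was not found by name among the miRNAs of the array and has no value here.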

Additional observations from a re-analysis of the deposited data

How the results depend on the processing

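With the 20 alternatives, 0 of the tested arms had an adjusted p under 0.05 in any. miR-155-5p stayed higher with flagellin in all 20, with log2 differences of 0.26 to 0.54, adjusted p of at least 0.201 and an unadjusted p under 0.05 in 17. miR-146a-5p did so too, at 0.16 to 0.47, with adjusted p of at least 0.201 and an unadjusted p under 0.05 in 15. How many of the 307 miRNAs passed the same unadjusted limit also varied with the setting. It was 18 as reported, 8 without scaling and 71 without flagellin replicate 3. All alternatives reuse the same arrays, so the counts of 17 and 15 add no separate support. The highest log2 differences of both arms came when the percentile was taken over every mouse miRNA. That choice also moved the median of all tested miRNAs to 0.19. Without scaling, 1 arm instead of 2 was higher without overlap, miR-155-5p, and 2 single probes instead of 5, and neither arm had an unadjusted p under 0.05. The count of arms was 3 with the floor divided by 10, signals under 1 set to 1, the authors' deposited values or quantile normalization. With the floor divided by 10, miR-146b-3p, at the limit of detection, had a log2 difference of 0.13. With probe level processed signals miR-146b-5p had a log2 difference of −0.042, the reverse of its reported sign, and the cause was not tested. The methods' t-test gave an unadjusted p under 0.05 for the same 2 arms and an adjusted p under 0.05 for 0. Leaving out each array in turn gave 0.27 to 0.44 for miR-155-5p, the lowest without mock replicate 1, and 0.23 to 0.32 for miR-146a-5p. The range was 0.0013 to 0.11 for miR-146b-5p and 0.00051 to 0.14 for the difference between the changes of miR-155-5p and miR-146a-5p. Leaving out each array gave 2 to 3 arms and 5 to 7 probes higher without overlap. With fewer arrays such a parting is more frequent. No share over all miRNAs or probes is given for any count without overlap under the alternatives, so these counts have no background.

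Replicate numbers are shared between the groups, and the labels do not say whether they mark a pairing. Deviations of same-numbered arrays correlated at −0.043 and −0.076. The deviations of the 2 mock arrays from their mean mirror each other, so these correlations cannot decide whether the arrays are paired. With the replicate number as a block, flagellin replicate 3 has no mock array of its number and does not enter the difference. Under this block miR-155-5p had a log2 difference of 0.33 and miR-146a-5p 0.30 (limma's test, adjusted p = 0.336 for each), and 0 arms were called. These log2 differences are the same as without flagellin replicate 3. Of all miRNAs, 0 instead of 2 were called under that block, and 39 instead of 18 had an unadjusted p under 0.05. The slide was not run as a block, since all arrays lay on 1 slide. Signal over background limits miR-146b-3p, which lies near 3 errors, and the 4 undetected arms.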
